A study of Mus musculus with 25 samples.

Results

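The comparison of RasLOW with control BMEL cells rests on 6 of the 25 libraries of the series, 3 of each population, and was made on every gene of the deposited count table. BMEL cells are untransformed bipotential progenitors from mouse embryonic liver (C57B/6_C3H in the labels), able to give both hepatocytes and bile duct cells, and the parental line used here was clonally derived. RasLOW cells are BMEL cells that carry a human H-Ras G12V cDNA on a bicistronic vector with a fluorescent reporter and were sorted for weak fluorescence. The sample labels describe the controls as empty vector cells, whereas the study's text calls them parental BMEL cells. Both populations were grown with insulin, insulin-like growth factor 2 and epidermal growth factor on collagen. RasLOW cells are a sorted pool and not a clone, their range of transgene levels overlaps that of the RasHIGH population, and the sources used here do not say which reporter the sequenced RasLOW cells carried. The other libraries, from RasHIGH cells and from tumours, were left aside except where they are named. The question was what a low level of the oncogene changes in these progenitors.

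Ras proteins are small GTPases that pass signals from growth factor receptors to the kinase cascade of Raf, Mek and Erk. The G12V change keeps H-Ras in its active form. Active Erk phosphorylates Rsk kinases and transcription factors and induces its own inhibitors, the Sprouty and Dusp proteins, so that the transcript levels of these inhibitors are widely used as a reading of the pathway. In liver progenitors oncogenic Ras is known as a transforming event, and p53 and its target genes act as a brake on it.

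Each library held between 23308427 and 28205198 counts, and 3 counts corresponded to between 0.107 and 0.129 CPM (counts per 1000000 of the library size scaled by the TMM factors of edgeR), a limit that covers counting error only. Transcripts of the cell type were present in all 6 libraries. Krt8, a keratin of liver progenitors, was at 4480.0, 4204 and 3667 CPM in the controls and 4954, 2892 and 4049 CPM in RasLOW cells, and Hnf4a, a liver transcription factor, was at 470.2, 366 and 474 CPM in the controls and 349, 442 and 322 CPM in RasLOW cells, while Epcam was at no more than 0.914 CPM and Alb at no more than 10.6 CPM. Markers of other cell types were low: the summed level of 9 endothelial genes was between 0.601 and 3.52 CPM, that of 10 leukocyte genes was between 8.17 and 11.3 CPM in the controls and between 4.08 and 5.63 CPM in RasLOW cells, and that of 6 erythroid genes was at most 0.201 CPM. Of the mesothelial genes Msln was abundant, at 1255, 1420.2 and 1403 CPM in the controls and 955, 2864 and 1453 CPM in RasLOW cells, and Wt1 fell from 15.2, 12.8 and 13.4 to 2.45, 1.25 and 0.215 CPM (edgeR adjusted p = 0.0312). In bulk RNA fewer cells of a type and less RNA per cell cannot be told apart. Mouse Hras does not check the labels, since the transgene is human and its reads need not be counted on the mouse gene. It was at 90.5, 93.6 and 77.4 CPM in the controls and 105, 51.2 and 91.6 CPM in RasLOW cells, groups that overlapped (log2 fold change -0.08, standard error 0.26, edgeR adjusted p = 0.910), and its direction turned without RasLOW replicate 2 and in lane 4 alone.

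Some libraries stood apart. RasLOW replicate 2 correlated with RasLOW replicates 1 and 3 at r = 0.955 and 0.964 across genes (log2 of CPM plus 1), whereas those replicates correlated at 0.985 and the controls at 0.983 to 0.993. Its 26 proliferation genes were all lower than in the other 5 libraries and summed to 1627 CPM, against 6495 and 6601 CPM in RasLOW replicates 1 and 3 and 4757 to 5187 CPM in the controls. The transcripts Rn45s, Lars2, Mir6240 and Mir6236 together took 4.03% of the counts of control replicate 1 and 2.21% of those of RasLOW replicate 2, against 0.0969% to 0.118% in the other 4 libraries. Control replicates 1 and 2 were sequenced in lane 3 and the other 4 libraries in lane 4, so that lane nearly coincides with group.

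**Figure D1:**
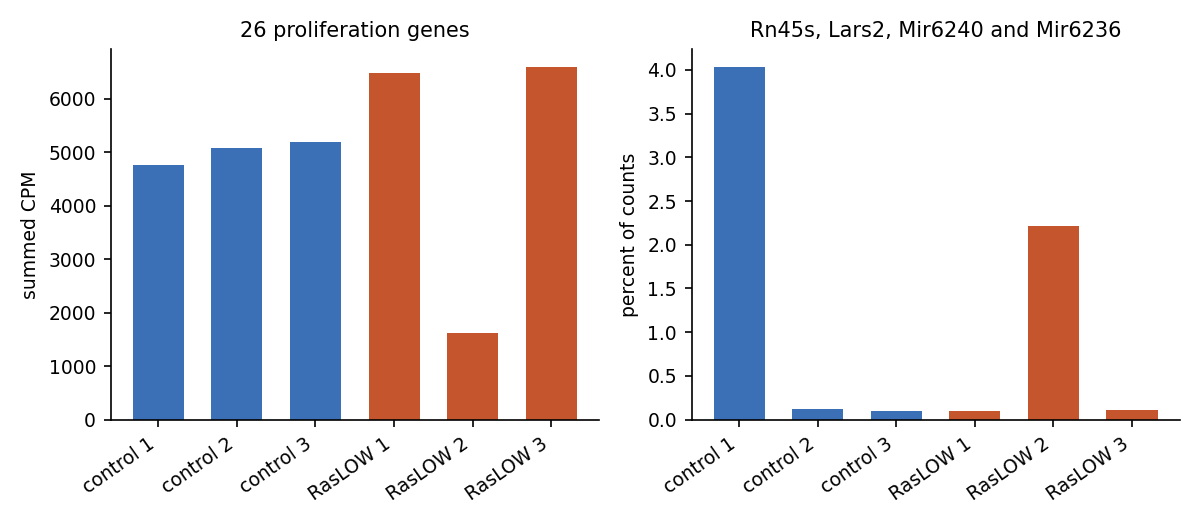
Summed level of 26 proliferation genes (left, CPM) and share of all counts taken by Rn45s, Lars2, Mir6240 and Mir6236 (right, percent) in each of the 3 control (blue) and 3 RasLOW (orange) libraries, 1 bar per library with no error bar. RasLOW replicate 2 has the lowest proliferation sum, 1627 CPM, and control replicate 1 and RasLOW replicate 2 have the raised shares of 4.03% and 2.21%.

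Among the genes that passed the test below, many more fell than rose in RasLOW cells, and they fell further. Of 12307 genes tested, 734 (5.96%) passed an edgeR adjusted p under 0.05, called from here on, 236 of them higher (1.92%) and 498 lower (4.05%) in RasLOW cells. The median log2 fold change was 1.05 among the genes called higher and -2.33 among those called lower, against 0.01 over all genes tested. A fold of 8 or more was seen in 18 of the genes called higher and in 190 of those called lower. In 17 of the latter every RasLOW library held 0 counts, so that their fold is known only as a lower bound, from at least 3.38-fold to at least 42.3-fold lower against 3 counts in a library. With these 17 at their bounds, 183 genes were lower by 8-fold or more and the median of the genes called lower was -2.27. In each of the 734 called genes every RasLOW library lay outside the range of the controls on the same side, which held for 28.1% of all genes tested. With thresholds on size and unadjusted p, a log2 fold change beyond 1.5 either way and p under 0.01, the same fit gave 106 genes higher (0.861%) and 436 lower (3.54%), together 4.4% of the genes tested.

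These counts depend on single libraries. When RasLOW replicate 2 was left out, 2340 genes were called (18.6% of those tested), 980 higher (7.81%) and 1360 lower (10.8%), among them 733 of the 734. In that library itself 702 of the 980 and 1103 of the 1360 lay on the same side of the control mean. These genes were chosen by their difference from the same controls, so that part of this was set by the choice. The share over all genes was not counted. When control replicate 1 was left out, 218 were called (1.74%), 56 higher (0.448%) and 162 lower (1.3%), 202 of them among the 734. Leaving out control replicate 2, control replicate 3, RasLOW replicate 1 or RasLOW replicate 3 gave 148, 178, 368 and 199 genes. DESeq2 called 1622 (13.2%), 690 higher (5.61%) and 932 lower (7.57%), a share of 42.5% higher against 32.2% with edgeR. With lane as a covariate 26 of the 734 remained called (0.211% of the genes tested), 3 higher (0.0244%) and 23 lower (0.187%). Within lane 4 only control replicate 3 stands against the 3 RasLOW libraries, so that only fold changes are given here. The 723 called genes tested in lane 4 alone had a median ratio of 0.958 between the log2 fold change there and that with all 6 libraries. That all of them kept their direction was set by the choice of genes. In every called gene control replicate 3 already lay beyond all RasLOW libraries. A look-up on the 178 genes called without control replicate 3 was added after the data had been seen. In all of them that library, left out of the fit, lay beyond every RasLOW library on the control side. These genes were chosen by their difference from the same RasLOW libraries, and all 178 are among the 734, whose groups do not overlap. Over all genes tested the groups did not overlap in 28.1%, and the share for this library alone was not counted.

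The 26 genes called with lane as a covariate included Rap1b, Rps6ka2 and the transporter gene Slc35e3, which rose. The falls included the secreted or matrix-modifying genes Inhbb, Thbs1, Sulf2 and Serpina1b, the homeobox genes Hoxb6 and Hoxb7, the regulators Vgll3, Peg3, Lmcd1 and Htatip2, the kinase Dapk1 and the kinase scaffold Akap12. They also took in the enzymes Ces2e and Gsta3, the exchanger, receptor and channel-like genes Slc8a1, Gria3, Robo3 and Tmc7, and Crocc2, Spata6, Klhdc7a and Epb41l4a. Those that belong to a list or a run of neighbours are described with it.

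**Figure D2:**
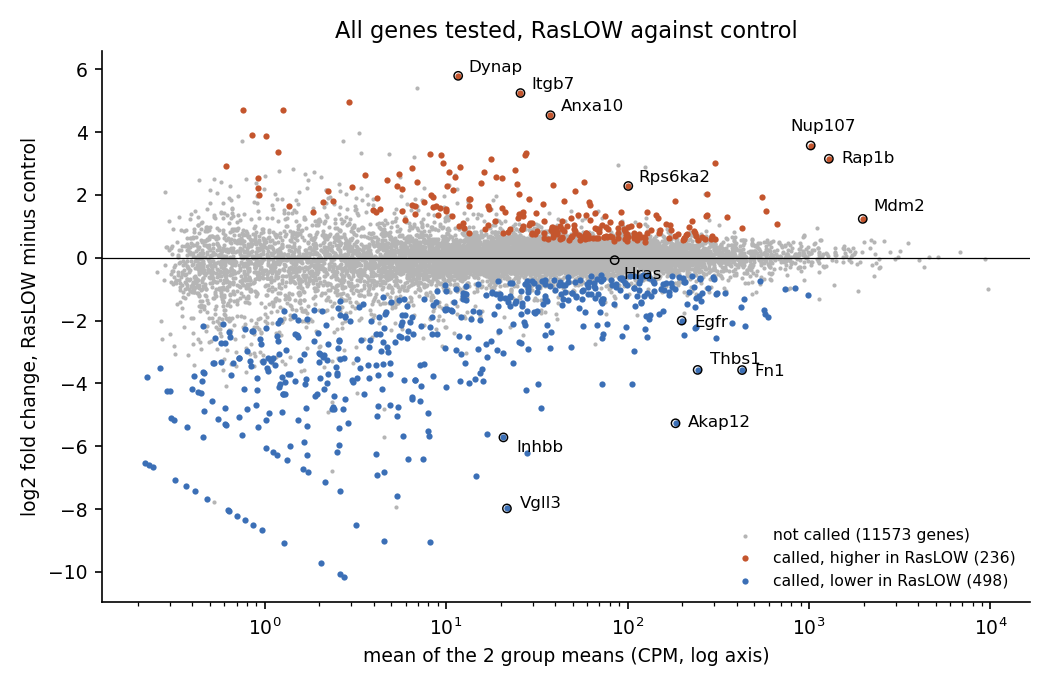
Log2 fold change of RasLOW against control (vertical axis) over the mean of the 2 group means in CPM (horizontal log axis) for the 12307 genes tested, with the 236 genes called higher in orange, the 498 called lower in blue and the others in grey. The fall reaches further than the rise, and the line of blue points at the lower left holds genes with 0 counts in every RasLOW library, whose plotted value depends on the prior count of edgeR.

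Some genes of the Ras cascade itself changed. Of 28 genes of the Ras family and of the Raf, Mek and Erk cascade, 27 were tested, 3 rose and 1 fell, with a median log2 fold change of 0.07 (over all genes 1.92% rose and 4.05% fell). Rap1b, a small GTPase close to Ras, was at 232, 259 and 289 CPM in the controls and 2897, 2014 and 2031 CPM in RasLOW cells (log2 fold change 3.15, standard error 0.21, edgeR adjusted p = 0.00218). Rps6ka2, which encodes the Rsk3 kinase that Erk activates, was at 34.1, 37.5 and 31.5 CPM in the controls and 195, 146 and 162 CPM in RasLOW cells (log2 fold change 2.29, standard error 0.16, edgeR adjusted p = 0.00218). Rps6ka3, which encodes Rsk2, was at 71.0, 60.3 and 70.5 CPM in the controls and 129, 143 and 131 CPM in RasLOW cells (log2 fold change 0.996, standard error 0.13, edgeR adjusted p = 0.00974). For each of these genes the lowest RasLOW library lay above the highest control, by a wide margin for Rap1b and Rps6ka2. Both also stayed called with lane as a covariate, Rap1b at an edgeR adjusted p of 0.0499. Rap1b lies in a run of rises on chromosome 10. Rps6ka2 lies on chromosome 17 and Rps6ka3 near the end of the X chromosome, both of which had raised medians, as described below. Ksr1, a scaffold of Raf, Mek and Erk, fell from 14.2, 17.6 and 17.8 to 6.48, 4.81 and 3.95 CPM (log2 fold change -1.70, standard error 0.25, edgeR adjusted p = 0.0135). All 4 of these calls held without control replicate 1, and without RasLOW replicate 2, 4 of the list rose and 1 fell. Nras at 0.39, Braf at 0.07, Map2k1 at 0.42 and Mapk3 at -0.09 in log2 fold change were not called.

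Among feedback genes of Erk the share called was close to that of all genes, 5.96%. Of 19 Erk feedback and delayed early genes tested of 20 listed, 1 was called, the Ets transcription factor Etv5, and the median log2 fold change was 0.18. Etv5 was at 19.2, 14.6 and 20.8 CPM in the controls and 36.6, 44.5 and 37.8 CPM in RasLOW cells (log2 fold change 1.12, standard error 0.18, edgeR adjusted p = 0.0191). Every RasLOW library was above every control, but the adjusted p was 0.0674 without control replicate 1. Without RasLOW replicate 2, and likewise with DESeq2, 2 of the list rose and 1 fell. Etv4, its close relative, was at 53.5, 37.6 and 48.5 CPM in the controls and 116, 64.6 and 63.5 CPM in RasLOW cells, also without overlap, and was not called (log2 fold change 0.80, standard error 0.27, edgeR adjusted p = 0.132). Dusp6, a phosphatase of Erk, was at 620.1, 477 and 473 CPM in the controls and 459, 604 and 493 CPM in RasLOW cells, with the groups fully overlapping (log2 fold change -0.01, standard error 0.18, edgeR adjusted p = 0.981), and Dusp4 at 76.4, 91.6 and 86.5 CPM in the controls and 78.4, 142 and 67.6 CPM in RasLOW cells, with RasLOW replicate 2 alone above the controls. Phlda1 (log2 fold change -0.35, adjusted p = 0.314), Spry2 (0.49, adjusted p = 0.311) and Spry4 (0.62, adjusted p = 0.234), all by edgeR, were not called either. Several of these genes were also measured by RTqPCR in the study. Among the other RTqPCR targets, Selp, the adhesion receptor P-selectin, rose from 1.26, 2.70 and 1.33 to 26.3, 6.03 and 18.7 CPM (log2 fold change 3.27, standard error 0.59, edgeR adjusted p = 0.0245), with every RasLOW library above every control. Its call did not hold without control replicate 1 (edgeR adjusted p = 0.102). The low transcripts Csn3, a casein, and Tmem252 were not called (log2 fold change 0.05 and -0.65), and Ceacam1, an adhesion molecule at no more than 1.96 CPM, did not pass the filter on low counts.

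Immediate early genes gave 2 falls. Of 20 tested of 21 listed, 0 rose and 2 fell, with a median log2 fold change of 0.04. The shares over all genes were 1.92% higher and 4.05% lower. Dusp1, a phosphatase of p38, Jnk and Erk, was at 282, 216 and 121 CPM in the controls and 21.5, 67.0 and 40.9 CPM in RasLOW cells (log2 fold change -2.26, standard error 0.46, edgeR adjusted p = 0.0334). Jun, an AP-1 subunit, was at 93.0, 102 and 67.5 CPM in the controls and 52.9, 44.2 and 39.1 CPM in RasLOW cells (log2 fold change -0.95, standard error 0.20, edgeR adjusted p = 0.0355). The RasLOW libraries were below the controls in both, and neither call held without control replicate 1 (adjusted p 0.110 and 0.122 by edgeR). When RasLOW replicate 2 was left out, 0 of the list rose and 6 fell, and the median moved to -0.60. DESeq2 called 1 higher and 3 lower. Fos at 0.49, Egr1 at 0.87, Fosl1 at 0.28 and Myc at 0.25 in log2 fold change had adjusted p-values of 0.701, 0.603, 0.659 and 0.351.

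The Egf receptor system changed in both directions, the receptor lower and its feedback inhibitor higher. Of 11 members tested of 13 listed, 2 rose and 3 fell, against the 1.92% and 4.05% of all genes given above. Egfr (mm9 chr11:16652206-16818161, plus strand), the receptor of Egf, was at 324, 362 and 268 CPM in the controls and 61.0, 93.9 and 83.8 CPM in RasLOW cells (log2 fold change -1.999, standard error 0.21, edgeR adjusted p = 0.00509). The highest RasLOW library was below the lowest control by more than the range within either group, and the call held without control replicate 1 (adjusted p = 0.0249). Errfi1, an inhibitor that binds and silences the active receptor, was at 101, 110.4 and 103 CPM in the controls and 263, 199 and 199 CPM in RasLOW cells (log2 fold change 1.07, standard error 0.16, edgeR adjusted p = 0.0133). Among the ligands, amphiregulin rose and neuregulin 1 and Hb-egf fell. Areg was at 158, 150.5 and 148 CPM in the controls and 518, 376 and 264 CPM in RasLOW cells (log2 fold change 1.34, standard error 0.24, edgeR adjusted p = 0.0236), with the 3 RasLOW libraries far apart from each other but all above the controls. Nrg1, which binds Erbb3 and Erbb4, was at 115, 117 and 94.4 CPM in the controls and 42.5, 30.5 and 25.9 CPM in RasLOW cells (log2 fold change -1.72, standard error 0.21, edgeR adjusted p = 0.00804). Hbegf was at 271, 289 and 249 CPM in the controls and 194, 183 and 169 CPM in RasLOW cells (log2 fold change -0.57, standard error 0.13, edgeR adjusted p = 0.0495), the smallest of these changes and the closest to the threshold. Erbb3 (1.33, adjusted p = 0.180) and Btc (1.28, adjusted p = 0.0620) had high values by edgeR without passing, and Erbb2 was at -0.04. Of these calls those of Egfr and Nrg1 held without control replicate 1, and without RasLOW replicate 2, 3 of the list rose and 3 fell.

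**Figure D3:**
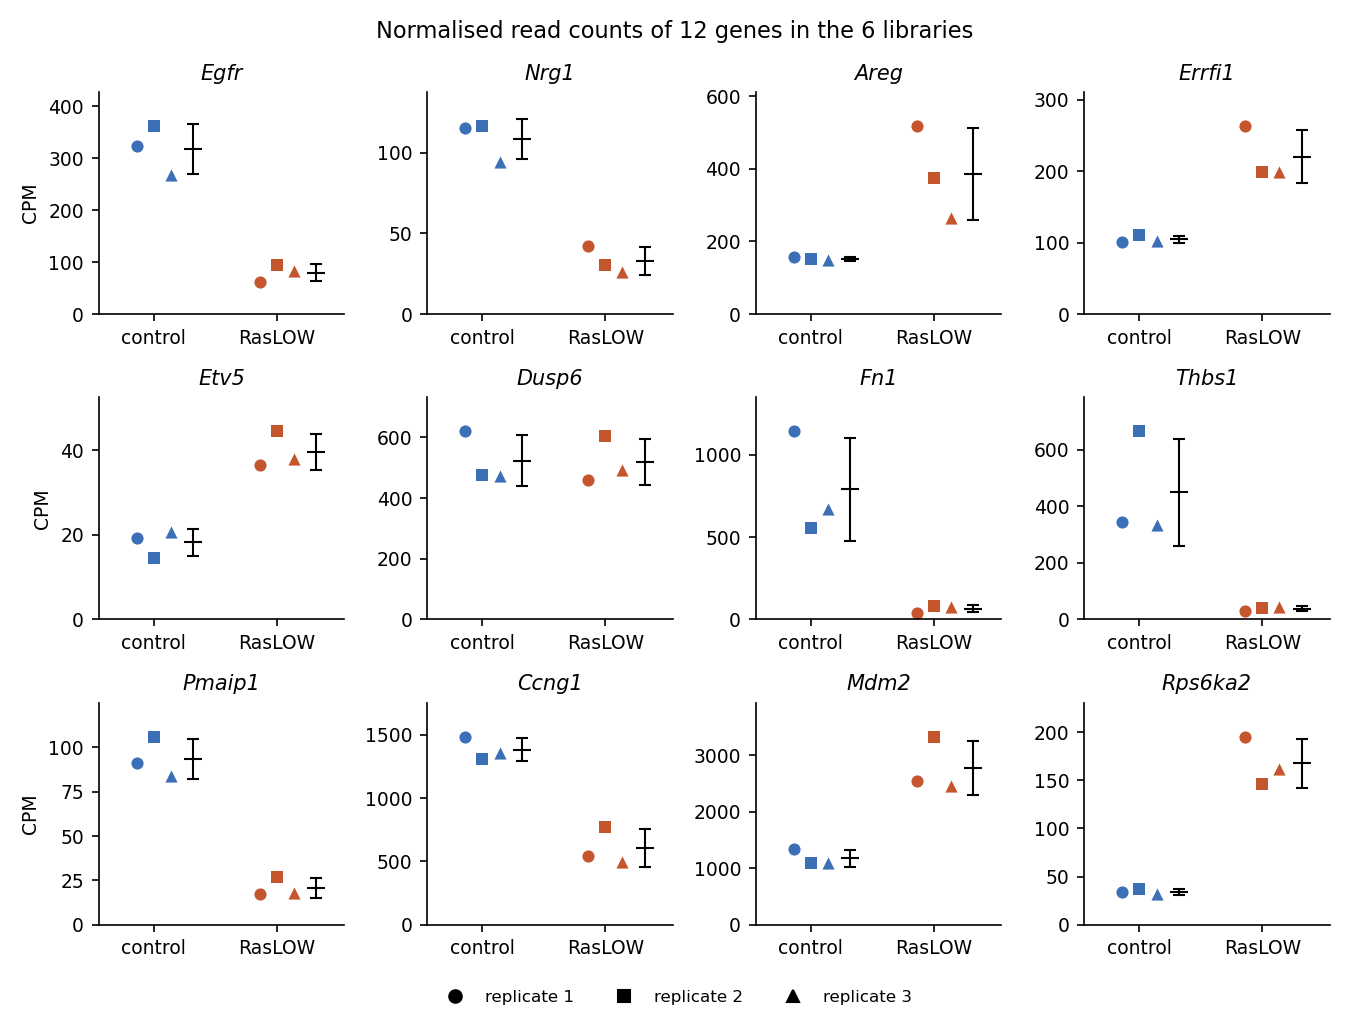
Normalised read counts (CPM, linear axes from 0) of 12 genes in the 3 control (blue) and 3 RasLOW (orange) libraries, with the replicate number as the marker shape and the mean and SD (n = 3) of each group in black. The groups do not overlap in the 11 called genes, as in every called gene and in 28.1% of all genes tested. They overlap in Dusp6, which was not called.

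Some genes of cell adhesion and tension fell. Yap and its partner Tead, and Srf with its actin-regulated cofactors, are transcription regulators that read the state of the actin cytoskeleton. Of 22 Yap and Tead target genes tested of 23 listed, 0 rose and 4 fell (median log2 fold change -0.54, 18 of 22 below 0), and of 22 actin cytoskeleton and Srf target genes tested of 27 listed, 0 rose and 5 fell (median -0.50, 19 of 22 below 0). Over all genes tested the median was 0.01, 1.92% rose and 4.05% fell, and 51.5% of those with a position were above 0. With lane as a covariate 0 genes of either list were called, and the medians were -0.38 and -0.31. The summed level of the actin list overlapped between groups, at 20889 CPM in control replicate 3 and 23340, 16646 and 22352 CPM in RasLOW cells. That of the Yap and Tead list was lower in every RasLOW library than in any control. The 250 bases upstream of the start of the 4 called genes of these lists with the largest falls are given here to show the DNA that these regulators could read, 5′ to 3′ on the strand of the gene, from RefSeq (GRCm38.p6). Capitals mark the Tead motif GGAATG, searched on both strands, or a CArG box, the element that Srf binds, and the 2 motifs did not overlap.
Ankrd1 (chr19:36119845-36120094, minus strand): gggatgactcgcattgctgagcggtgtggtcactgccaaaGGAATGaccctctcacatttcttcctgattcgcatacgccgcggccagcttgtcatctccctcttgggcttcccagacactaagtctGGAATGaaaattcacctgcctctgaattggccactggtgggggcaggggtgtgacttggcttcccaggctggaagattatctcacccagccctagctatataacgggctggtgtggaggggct
Ccn1 (chr3:145649986-145650235, minus strand): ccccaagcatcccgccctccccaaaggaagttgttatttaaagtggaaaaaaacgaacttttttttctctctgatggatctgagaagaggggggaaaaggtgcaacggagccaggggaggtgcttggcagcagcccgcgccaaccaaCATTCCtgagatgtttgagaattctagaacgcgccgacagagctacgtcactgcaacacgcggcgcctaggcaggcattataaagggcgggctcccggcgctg
Fhl1 (chrX:56779433-56779682, plus strand): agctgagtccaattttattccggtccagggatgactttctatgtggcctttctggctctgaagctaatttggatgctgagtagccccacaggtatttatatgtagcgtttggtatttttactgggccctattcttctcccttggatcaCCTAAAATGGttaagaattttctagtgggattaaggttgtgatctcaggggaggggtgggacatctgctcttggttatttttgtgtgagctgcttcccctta
Zyx (chr6:42349578-42349827, plus strand): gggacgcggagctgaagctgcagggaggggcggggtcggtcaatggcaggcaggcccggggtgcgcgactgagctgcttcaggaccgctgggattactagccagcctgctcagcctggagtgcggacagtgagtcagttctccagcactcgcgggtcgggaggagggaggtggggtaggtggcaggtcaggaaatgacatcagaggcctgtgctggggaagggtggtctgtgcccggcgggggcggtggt

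The upstream sequence of Ankrd1 held 2 Tead motifs, with first bases 210 and 123 bases before the start, and that of Ccn1 held 1, on the opposite strand, at 103 bases. The first of 2 starts of Fhl1 had 1 CArG box at 102 bases, and its second start, whose sequence is not printed, had neither motif. Zyx had neither motif. Of 32851 mouse upstream sequences of the same length, 12.6% held a Tead motif and 1.47% a CArG box, so that a match is a description and not a binding site.

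Ccn1, a secreted matrix protein also known as Cyr61, was at 914, 1259.6 and 627 CPM in the controls and 141, 258 and 367 CPM in RasLOW cells (log2 fold change -1.87, standard error 0.39, edgeR adjusted p = 0.0356). Ankrd1, a nuclear and sarcomeric ankyrin repeat protein, was at 865, 1107 and 616 CPM in the controls and 284, 244 and 285 CPM in RasLOW cells (log2 fold change -1.67, standard error 0.23, edgeR adjusted p = 0.0109). The controls themselves ranged widely in both, with replicate 2 highest and replicate 3 lowest, and the RasLOW libraries lay below all of them. Nuak2, a kinase of the Ampk family, fell by 1.33 and Ptpn14, a phosphatase that restrains Yap, by 1.11 on the log2 scale (edgeR adjusted p = 0.00998 and 0.0495). Ccn2, also known as Ctgf, was at -1.31 with an adjusted p of 0.0632 and was not called. Ankrd1 and Nuak2 stayed called without control replicate 1 (2 of the list), and without RasLOW replicate 2, 10 of the list fell and 1 rose.

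Zyx, the focal adhesion protein zyxin, was at 367, 456 and 238 CPM in the controls and 125, 131 and 98.95 CPM in RasLOW cells (log2 fold change -1.58, standard error 0.25, edgeR adjusted p = 0.0182). Fhl1, a LIM domain protein, was at 37.1, 5.92 and 3.496 CPM in the controls and 0, 0.428 and 0.601 CPM in RasLOW cells, with control replicate 1 far above the other controls and all RasLOW libraries at 0.601 CPM or less (log2 fold change -5.50, standard error 1.25, edgeR adjusted p = 0.0476). Tropomyosin 1, which covers actin filaments, fell as well: Tpm1 was at 1199, 1249 and 903 CPM in the controls and 574, 621 and 509 CPM in RasLOW cells (log2 fold change -0.98, standard error 0.17, edgeR adjusted p = 0.0239). Csrp1 and Cald1, both actin-associated, fell with log2 fold changes of -1.46 and -1.003 (edgeR adjusted p = 0.0196 and 0.0331). No actin gene was called without control replicate 1, and without RasLOW replicate 2, 7 fell and 1 rose, while DESeq2 called 10 lower and 1 higher. The log2 fold change of Fhl1 was -3.78 without control replicate 1 and -4.91 and -6.13 without RasLOW replicates 1 and 3. Vgll3, a cofactor of Tead outside the list and one of the largest falls of all, was at 45.1, 62.9 and 21.4 CPM in the controls and 0.148, 0.178 and 0.172 CPM in RasLOW cells (log2 fold change -7.98, standard error 0.54, edgeR adjusted p = 0.00218). All 3 RasLOW libraries were near the level of 3 counts, and the call held with lane as a covariate.

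Extracellular matrix genes gave 9 falls and no rise, where 4.05% of all genes fell and 1.92% rose. Of 33 genes listed 20 were tested, 0 rose and 9 fell, with a median log2 fold change of -1.49 that did not move when Bgn, at 0 counts in all RasLOW libraries, was set to its bound. Fn1 (mm9 chr1:71632094-71699774, minus strand), fibronectin, was at 1143, 557 and 668 CPM in the controls and 39.2, 84.6 and 74.9 CPM in RasLOW cells (log2 fold change -3.57, standard error 0.39, edgeR adjusted p = 0.00635). Thbs1 (mm9 chr2:117937612-117952869, plus strand), the matrix glycoprotein thrombospondin 1, was at 346, 666 and 335 CPM in the controls and 28.4, 42.0 and 43.2 CPM in RasLOW cells (log2 fold change -3.57, standard error 0.33, edgeR adjusted p = 0.00416). In both genes each RasLOW library was far below the lowest control, and Thbs1 stayed called with lane as a covariate. Col12a1, a collagen that decorates fibrils, was at 21.8, 11.4 and 14.2 CPM in the controls and 0.0741, 0.606 and 0.215 CPM in RasLOW cells (log2 fold change -5.68, standard error 0.64, edgeR adjusted p = 0.00640). Nid1, which links laminin and collagen in basement membranes, was at 51.7, 18.1 and 16.6 CPM in the controls and 4.96, 4.71 and 3.22 CPM in RasLOW cells (log2 fold change -2.74, standard error 0.48, edgeR adjusted p = 0.0230). Control replicate 1 was far above the other controls, while all RasLOW libraries were lower. Tnc at -3.18, Col5a1 at -1.54 and Fbln2 at -0.72 also fell on the log2 scale, and Bgn was at least 3.58-fold lower. Fn1, Thbs1, Col12a1 and Nid1 stayed called without control replicate 1. A fit without RasLOW replicate 2 tested 22 genes of the list and called 14, all lower. In that fit Col12a1 was at -6.76 on the log2 scale, and Nid1 was at -2.01 without control replicate 1 and Tnc at -3.98 without RasLOW replicate 1. The summed level of 10 fibroblast and stellate cell markers was 9.73 to 12.1 CPM in the controls and 2.23 to 6.92 CPM in RasLOW cells, most of it Col1a1, with Dcn at 0 in all 6 libraries and Lum at no more than 0.0429 CPM. Of these markers only Col1a1 was tested, and it was not called.

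Other matrix genes were among the largest changes. Col4a3 and Col4a4, neighbouring genes of basement membrane collagen on chromosome 1, were at 0.648, 11.0 and 7.39 and 0.686, 9.84 and 5.83 CPM in the controls. In RasLOW cells Col4a4 had 0 counts in all libraries, a fall of 42.3-fold or more, and Col4a3 was at 0, 0.0357 and 0 CPM. Control replicate 1 was far below the other controls in both. Adamts5, which cuts aggrecan, was at least 9.94-fold lower with 0 counts in RasLOW cells, and Serpine2, an inhibitor of serine proteases, was at 23.4, 4.07 and 4.54 CPM in the controls and 0.0741, 0.0713 and 0 CPM in RasLOW cells (log2 fold change -7.59, standard error 1.09, edgeR adjusted p = 0.0133). In the opposite direction, Acan, which encodes aggrecan, was at 5.52, 5.07 and 4.74 CPM in the controls and 97.6, 31.2 and 18.2 CPM in RasLOW cells (log2 fold change 3.26, standard error 0.60, edgeR adjusted p = 0.0262), and Col6a3 was at 0.152, 0.111 and 0.0402 CPM in the controls and 2.22, 1.39 and 1.20 CPM in RasLOW cells (log2 fold change 3.92, standard error 0.57, edgeR adjusted p = 0.0133). RasLOW replicate 1 was the highest in Acan, but each RasLOW library was above each control in both genes. Single libraries carried part of these folds, since Serpine2, with control replicate 1 far above the other controls, was at -6.29 on the log2 scale without it, and Acan was at 2.27 without RasLOW replicate 1. Acan and Adamts5 were no longer called without control replicate 1 (edgeR adjusted p = 0.103 and 0.0553), while Col4a3, Col4a4, Serpine2 and Col6a3 were. Akap12, a kinase scaffold at the membrane that the study chose on these samples as a gene of graded fall, was at 472, 386 and 217 CPM in the controls and 4.78, 15.6 and 7.43 CPM in RasLOW cells (log2 fold change -5.27, standard error 0.53, edgeR adjusted p = 0.00502). Without RasLOW replicate 2 it was at -5.88.

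Integrins, the receptors of the matrix, gave calls in both directions. Of 20 integrin and laminin genes tested of 23 listed, 2 rose and 1 fell (median log2 fold change -0.02), where 1.92% and 4.05% of all genes did. Itgb7, an integrin beta chain known from lymphocytes, was at 1.22, 1.41 and 1.33 CPM in the controls and 74.9, 57.3 and 18.1 CPM in RasLOW cells (log2 fold change 5.24, standard error 0.55, edgeR adjusted p = 0.00536), the second largest rise by the rule used for named genes and one that the study had picked on these samples. Itga6, a laminin receptor chain, was at 375, 461 and 445 CPM in the controls and 1171, 777 and 760.0 CPM in RasLOW cells (log2 fold change 1.08, standard error 0.21, edgeR adjusted p = 0.0288). Itgb6, the epithelial partner of the alpha v chain, was at 31.0, 57.2 and 29.4 CPM in the controls and 10.5, 15.8 and 14.1 CPM in RasLOW cells (log2 fold change -1.54, standard error 0.30, edgeR adjusted p = 0.0306). Both risers and the faller had their groups apart, as every called gene did. Only Itgb7 stayed called without control replicate 1, while 2 of the list rose and 2 fell without RasLOW replicate 2. Of 14 epithelial and mesenchymal regulators tested of 26 listed, 0 rose and 2 fell: Nes, the intermediate filament nestin, at 561, 663 and 604 CPM in the controls and 208, 129 and 92.6 CPM in RasLOW cells (log2 fold change -2.09, standard error 0.29, edgeR adjusted p = 0.0117), and Cdh2, N-cadherin, at 712, 692 and 499 CPM in the controls and 201, 189.7 and 251 CPM in RasLOW cells (log2 fold change -1.57, standard error 0.19, edgeR adjusted p = 0.00838). Both were lower in every RasLOW library and stayed called without control replicate 1, and 3 of the list fell without RasLOW replicate 2. Cdh1 at -0.13, Vim at -0.03, Krt8 at -0.05 and Zeb1 at -0.22 were not called.

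Many target genes of p53 fell, while Mdm2 rose. All 24 genes listed were tested, 23 of them had a log2 fold change below 0 (median -0.80), 11 fell and 1 rose. Over all genes 4.05% fell and 1.92% rose, and 51.5% of those with a position had a log2 fold change above 0. Pmaip1 (mm9 chr18:66618258-66625204, plus strand), which encodes the pro-apoptotic protein Noxa and is one of the study's graded genes, was at 91.0, 106 and 83.6 CPM in the controls and 17.4, 27.1 and 17.9 CPM in RasLOW cells (log2 fold change -2.17, standard error 0.21, edgeR adjusted p = 0.00463). Fas, a death receptor, was at 14.4, 11.1 and 12.3 CPM in the controls and 0.296, 1.96 and 0.215 CPM in RasLOW cells (log2 fold change -3.90, standard error 0.76, edgeR adjusted p = 0.0305). Ccng1, cyclin G1, was at 1484, 1309 and 1352 CPM in the controls and 542, 775 and 498 CPM in RasLOW cells (log2 fold change -1.19, standard error 0.20, edgeR adjusted p = 0.0196). No RasLOW library reached the lowest control in any of them. Perp, a desmosomal protein linked to apoptosis, was at 637, 612 and 629 CPM in the controls and 265, 284 and 204 CPM in RasLOW cells (log2 fold change -1.32, standard error 0.16, edgeR adjusted p = 0.00804), and Plk2, a stress-induced kinase, at 340.4, 379 and 316 CPM in the controls and 133, 182 and 131 CPM in RasLOW cells (log2 fold change -1.21, standard error 0.17, edgeR adjusted p = 0.0131). Eda2r at -1.45, Gtse1 at -1.19, Phlda3 at -0.82, Ei24 at -0.80, Aen at -0.58 and Bax at -0.53 completed the falls on the log2 scale. Fas was at -5.58 on that scale without RasLOW replicate 2, the library with its highest RasLOW level.

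Mdm2, the ubiquitin ligase that degrades p53 and is itself a p53 target, was at 1348, 1098 and 1088 CPM in the controls and 2543, 3333 and 2463 CPM in RasLOW cells (log2 fold change 1.24, standard error 0.19, edgeR adjusted p = 0.0146), with the lowest RasLOW library above the highest control. Trp53 itself was at 331, 319 and 331 CPM in the controls and 317, 202 and 228 CPM in RasLOW cells, all 3 RasLOW libraries below the controls but replicate 1 by little, and was not called (log2 fold change -0.39, standard error 0.19, edgeR adjusted p = 0.278). Cdkn1a, the cell cycle inhibitor p21, was at -0.80 with an adjusted p of 0.186, and Gdf15 at -1.87 with 0.143 by edgeR. Pmaip1, Perp and Plk2 stayed called without control replicate 1, where Mdm2 was at an adjusted p of 0.0510, and without RasLOW replicate 2, 18 fell and 1 rose. Of 16 G1 regulators tested of 17 listed and of 26 proliferation genes, 0 were called in either direction by edgeR, with medians of -0.03 and -0.01. DESeq2 called 1 G1 regulator higher and no proliferation gene, and without RasLOW replicate 2, 2 G1 regulators fell. The median of the proliferation genes joins libraries that differ: RasLOW replicates 1 and 3 were above the controls by a median log2 of 0.39, RasLOW replicate 2 was below its own group by 1.99, and 7 of the 26 genes rose when it was left out. Of 13 Bcl2 family genes tested of 16 listed, only Pmaip1 and Bax were called, both lower, and without RasLOW replicate 2, 2 rose and 3 fell.

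**Figure D4:**
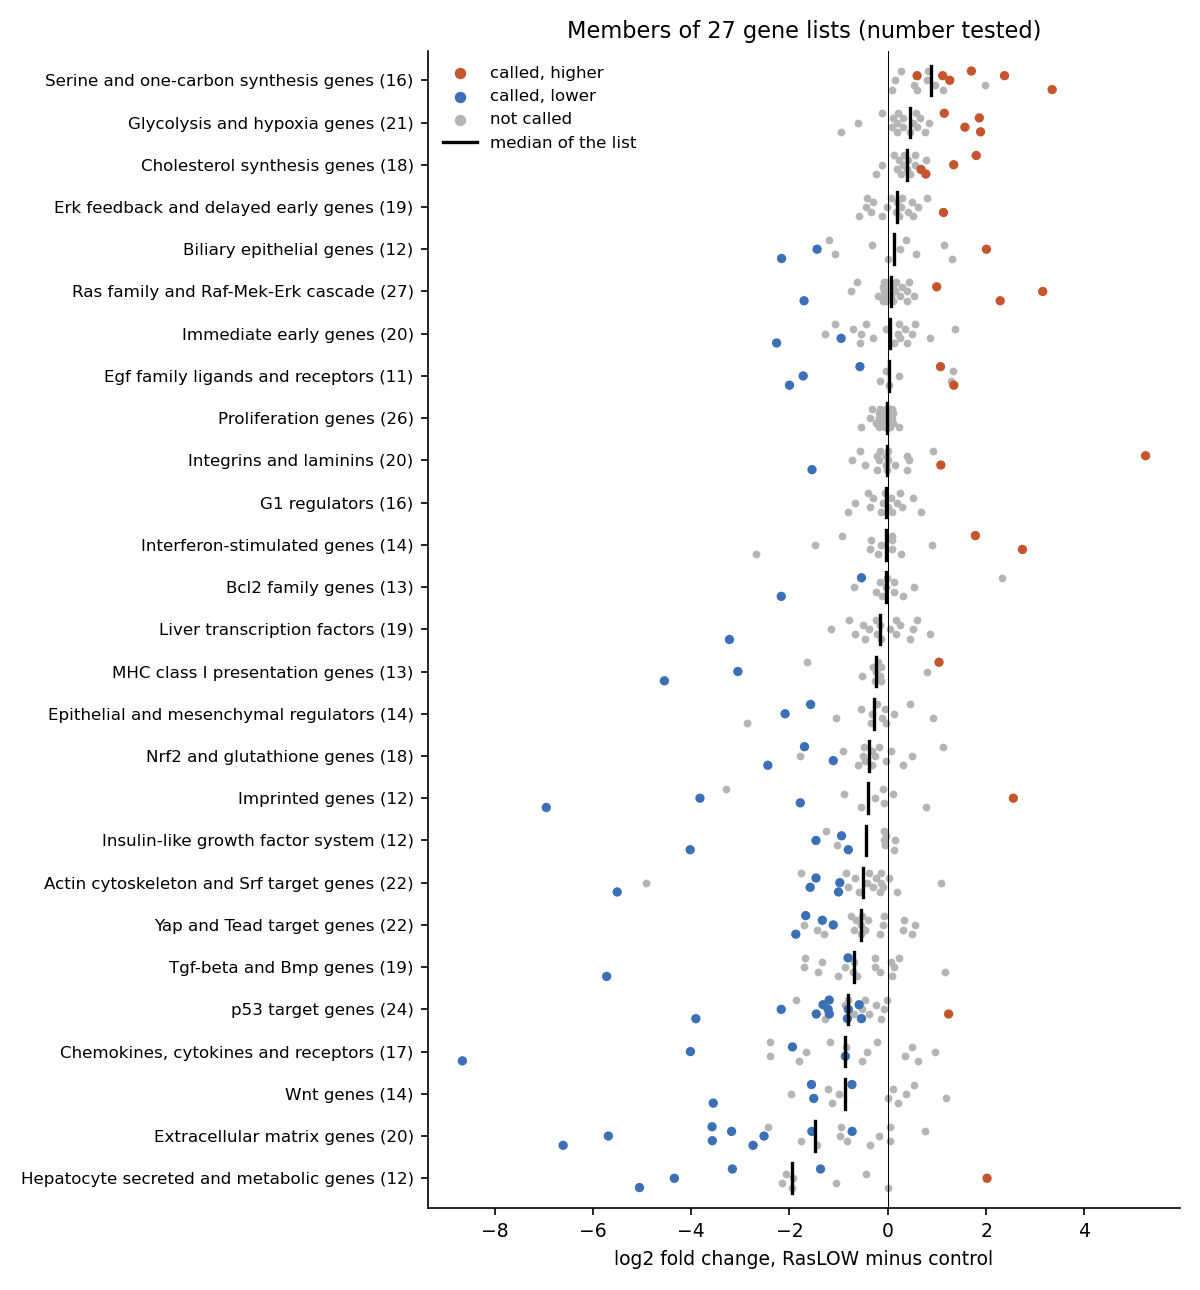
Log2 fold change of RasLOW against control for each tested member of 27 gene lists, 1 row per list with the number of genes tested, in order of the list median (black bar), with called genes in colour and others in grey. The lists of serine and one-carbon synthesis, glycolysis and cholesterol synthesis hold rises and no falls, while those of the extracellular matrix, Wnt, chemokine, Yap and actin genes hold falls and no rises, and the points of Ccl2 and Bgn, at 0 counts in RasLOW cells, depend on the prior count.

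Metabolic genes were called higher in 3 lists. Over all genes 1.92% rose and 4.05% fell, and 51.5% of those with a position were above 0. Of 16 serine and one-carbon synthesis genes, which include targets of the stress transcription factor Atf4, all were tested, 6 rose and 0 fell, and 16 of 16 were above 0 (median log2 fold change 0.89). Asns, asparagine synthetase, was at 68.1, 93.3 and 97.9 CPM in the controls and 139, 261 and 221 CPM in RasLOW cells (log2 fold change 1.26, standard error 0.26, edgeR adjusted p = 0.0341). Psph, the last enzyme of serine synthesis, was at 13.2, 16.9 and 18.2 CPM in the controls and 34.05, 68.3 and 54.5 CPM in RasLOW cells (log2 fold change 1.70, standard error 0.27, edgeR adjusted p = 0.0185), and Mthfd2, a mitochondrial folate enzyme, at 44.7, 67.4 and 61.8 CPM in the controls and 105, 134 and 139 CPM in RasLOW cells (log2 fold change 1.12, standard error 0.19, edgeR adjusted p = 0.0223). In these 3 genes RasLOW replicate 1 was the lowest of its group and yet above every control. Trib3, a pseudokinase induced by Atf4, was at 3.504, 4.36 and 7.03 CPM in the controls and 13.1, 109.8 and 28.3 CPM in RasLOW cells (log2 fold change 3.34, standard error 0.77, edgeR adjusted p = 0.0495). RasLOW replicate 2 was far above the next library, and without it the log2 fold change of Trib3 was 2.06. Chac1, which degrades glutathione, rose by 2.37 and Atf4 itself by 0.60 on the log2 scale (edgeR adjusted p = 0.0311 and 0.0486). Phgdh at 0.60 and Psat1 at 0.81, the first enzymes of serine synthesis, had adjusted p-values of 0.103 and 0.0711. No gene of the list was called without control replicate 1, and without RasLOW replicate 2, 10 rose. Bcat1, an enzyme of branched-chain amino acids outside the list, was at 0.267, 0.222 and 0.0402 CPM in the controls and 2.33, 9.13 and 5.45 CPM in RasLOW cells (log2 fold change 4.95, standard error 0.74, edgeR adjusted p = 0.0146). It was not called without control replicate 1 (edgeR adjusted p = 0.0559).

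Of 21 glycolysis and hypoxia genes tested of 24 listed, 4 rose and 0 fell (median 0.46, 18 of 21 above 0). Pdk1, which holds pyruvate back from mitochondria, was at 16.3, 9.76 and 11.1 CPM in the controls and 58.8, 47.6 and 28.6 CPM in RasLOW cells (log2 fold change 1.86, standard error 0.31, edgeR adjusted p = 0.0198). Pfkp, a phosphofructokinase, was at 4.57, 5.07 and 4.38 CPM in the controls and 14.1, 13.2 and 14.3 CPM in RasLOW cells (log2 fold change 1.57, standard error 0.20, edgeR adjusted p = 0.00902). Bnip3, a mitophagy receptor induced by hypoxia, and Egln3, an oxygen sensor, rose by 1.89 and 1.15 on the log2 scale (edgeR adjusted p = 0.0266 and 0.0132). RasLOW replicate 3 was the lowest of its group in Pdk1 and Bnip3, still above the controls. Slc2a1, the glucose transporter Glut1, was at 0.46 and Ldha at 0.65, neither called. Pfkp and Pdk1 stayed called without control replicate 1, and 8 of the list rose without RasLOW replicate 2.

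All 18 cholesterol synthesis genes were tested, 4 rose and 0 fell (median 0.40, 16 of 18 above 0). Insig1, which retains the sterol regulator Scap in the endoplasmic reticulum, was at 38.8, 48.6 and 40.7 CPM in the controls and 104, 134 and 86.5 CPM in RasLOW cells (log2 fold change 1.34, standard error 0.19, edgeR adjusted p = 0.0129). The synthesis enzymes Sqle and Cyp51 rose by less, 0.68 and 0.78 on the log2 scale (edgeR adjusted p = 0.0301 and 0.0314). In each of these genes all RasLOW libraries were above all controls, and none was called without control replicate 1, while 5 of the list rose without RasLOW replicate 2. Of 18 Nrf2 and glutathione genes, 0 rose and 3 fell (median -0.39): Gclc, a subunit of the first enzyme of glutathione synthesis, was at 382, 295 and 377 CPM in the controls and 108, 193 and 188 CPM in RasLOW cells (log2 fold change -1.11, standard error 0.24, edgeR adjusted p = 0.0430), and Osgin1 and Cbr1, the latter chosen by the study as graded, fell by 1.69 and 2.44 on the log2 scale. Of the 3, only Osgin1 stayed called without control replicate 1, and 6 of the list fell without RasLOW replicate 2. DESeq2 called 1 of the list higher and 4 lower.

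Secreted signals and their receptors fell in several families, where 4.05% of all genes fell and 1.92% rose. Of 34 chemokines, cytokines and receptors 17 were tested, 0 rose and 4 fell (median log2 fold change -0.86). Cxcl12, a chemokine of stem cell niches, was at 52.1, 85.1 and 43.9 CPM in the controls and 1.30, 7.81 and 2.02 CPM in RasLOW cells (log2 fold change -4.01, standard error 0.67, edgeR adjusted p = 0.0197). Csf1, the growth factor of macrophages, was at 169, 296 and 162 CPM in the controls and 36.6, 54.1 and 72.8 CPM in RasLOW cells (log2 fold change -1.94, standard error 0.33, edgeR adjusted p = 0.0198). Ccl2, which attracts monocytes, was at 1.10, 3.18 and 1.49 CPM in the controls and had 0 counts in each RasLOW library, at least 14.9-fold lower (edgeR adjusted p = 0.0185). The RasLOW libraries were below the controls in all 3 genes. Lif fell by 0.86 on the log2 scale. Only Ccl2 of the list was called without control replicate 1, and without RasLOW replicate 2, 8 fell and Cxcl12 was at -5.19. The leukocyte marker sums given above were also lower in RasLOW cells, with Adgre1 and Clec4f at 0 in all 6 libraries.

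Of 19 Tgf-beta and Bmp genes tested of 22 listed, 0 rose and 2 fell (median -0.68). Inhbb (mm9 chr1:121312042-121318825, minus strand), the beta B subunit of activin, was at 43.0, 55.1 and 23.9 CPM in the controls and 0.741, 0.749 and 0.816 CPM in RasLOW cells (log2 fold change -5.72, standard error 0.37, edgeR adjusted p = 0.00218), and it stayed called with lane as a covariate. The 3 RasLOW libraries were close to each other and far below the lowest control. Smad7, a feedback inhibitor of Tgf-beta signalling, was at 127, 143 and 102 CPM in the controls and 70.7, 75.8 and 66.0 CPM in RasLOW cells (log2 fold change -0.81, standard error 0.16, edgeR adjusted p = 0.0304). Without control replicate 1, Inhbb stayed called and 1 other gene of the list was called higher. When RasLOW replicate 2 was left out 8 of the list fell, and DESeq2 called 6 lower and 1 higher. Of 14 Wnt genes tested of 23 listed, 0 rose and 4 fell (median -0.87). Wnt9a, a ligand, was at 31.5, 36.2 and 19.8 CPM in the controls and 1.48, 4.35 and 1.59 CPM in RasLOW cells (log2 fold change -3.55, standard error 0.48, edgeR adjusted p = 0.0109), and Axin2, the feedback inhibitor of beta-catenin, at 5.49, 4.88 and 4.38 CPM in the controls and 1.56, 1.75 and 1.72 CPM in RasLOW cells (log2 fold change -1.55, standard error 0.28, edgeR adjusted p = 0.0241). The receptors Fzd1 and Fzd2 fell by 1.51 and 0.73 on the log2 scale. Wnt9a was the 1 gene of the list that stayed called without control replicate 1, and without RasLOW replicate 2, where it was at -4.24, 6 of the list fell.

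The insulin-like growth factor system, whose ligand is part of the culture medium, fell in its receptor and adaptors. Of 12 genes tested of 17 listed, 0 rose and 4 fell (median -0.44), against 1.92% and 4.05% of all genes. Igfbp7 (mm9 chr5:77778265-77837070, minus strand), a secreted binding protein, was at 192, 209.8 and 195 CPM in the controls and 4.22, 21.8 and 10.7 CPM in RasLOW cells (log2 fold change -4.02, standard error 0.54, edgeR adjusted p = 0.0106), and RasLOW replicate 1 was the lowest. Igf1r, the receptor, was at 315, 298 and 298 CPM in the controls and 113, 194 and 168 CPM in RasLOW cells (log2 fold change -0.94, standard error 0.20, edgeR adjusted p = 0.0411), and its adaptors Irs1 and Irs2 fell by 1.46 and 0.80 on the log2 scale (edgeR adjusted p = 0.0311 and 0.0314). Groups were apart in all 4 genes, as in every called gene. Of them Igfbp7 stayed called without control replicate 1, where Igfbp2 was called lower as well. When RasLOW replicate 2 was left out 5 of the list fell, and Igfbp7 was at -4.74 on the log2 scale.

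Many liver genes were too low to test. Of 19 liver transcription factors tested of 22 listed, 0 rose and 1 fell, Prox1, a regulator of hepatoblast migration, at 9.18, 3.70 and 4.58 CPM in the controls and 0.741, 0.677 and 0.429 CPM in RasLOW cells (log2 fold change -3.22, standard error 0.47, edgeR adjusted p = 0.0135). Hnf4a at -0.23, Foxa2 at 0.16 and Sox9 at -0.14 in log2 fold change were not called. Of 30 hepatocyte genes listed only 12 were tested, 1 rose and 4 fell, against 1.92% and 4.05% of all genes. Rbp4, the carrier of retinol, was at 141, 73.9 and 111 CPM in the controls and 403, 526 and 389 CPM in RasLOW cells (log2 fold change 2.02, standard error 0.26, edgeR adjusted p = 0.00951). Apoa1, the main protein of high density lipoprotein, was at 19.4, 14.8 and 56.8 CPM in the controls and 1.70, 5.38 and 3.05 CPM in RasLOW cells (log2 fold change -3.16, standard error 0.63, edgeR adjusted p = 0.0322), and Masp1, a protease of the complement lectin pathway, at 367, 394 and 334 CPM in the controls and 118, 196 and 109.9 CPM in RasLOW cells (log2 fold change -1.37, standard error 0.24, edgeR adjusted p = 0.0219). Rbp4 was higher and the other two lower in every RasLOW library. Serpina1b, which encodes an alpha-1-antitrypsin, was at 8.04, 5.70 and 10.6 CPM in the controls and 0.222, 0.321 and 0.172 CPM in RasLOW cells (log2 fold change -5.05, standard error 0.42, edgeR adjusted p = 0.00340), although reads of Serpina1a and Serpina1b, close copies, may not be told apart. Afp, the fetal albumin-like protein, was at 19.8, 9.91 and 7.23 CPM in the controls and 4.48, 1.604 and 2.19 CPM in RasLOW cells and was not called (adjusted p = 0.0552). Of 12 biliary genes tested of 17 listed, 1 rose and 2 fell: the chloride channel gene Cftr was at 3.39, 2.996 and 3.496 CPM in the controls and 13.4, 17.3 and 8.98 CPM in RasLOW cells (log2 fold change 2.01, standard error 0.29, edgeR adjusted p = 0.0134), Bicc1, an RNA-binding protein mutated in cystic kidneys, at 774, 685 and 725 CPM in the controls and 61.9, 215 and 211 CPM in RasLOW cells (log2 fold change -2.16, standard error 0.43, edgeR adjusted p = 0.0326), and Pkhd1, fibrocystin, fell by 1.44 on the log2 scale. Krt19 at 0.57 and Spp1 at -1.08 were not called. The liver call of Prox1 held without control replicate 1, and so did those of Rbp4 and Serpina1b, but no biliary call did. When RasLOW replicate 2 was left out, 5 transcription factors fell, 1 hepatocyte gene rose and 5 fell, and 1 biliary gene rose and 2 fell. Apoa1 was at -2.33 on the log2 scale without control replicate 3, its highest control.

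Imprinted genes and genes of immune recognition gave the remaining calls among the lists. Of 12 imprinted genes tested of 20 listed, 1 rose and 3 fell, against 1.92% and 4.05% of all genes. Peg3 (mm9 chr7:6656603-6683132, minus strand), a zinc finger protein expressed from the paternal allele, was at 892, 905 and 854 CPM in the controls and 232, 258 and 283 CPM in RasLOW cells (log2 fold change -1.78, standard error 0.14, edgeR adjusted p = 0.00277), the tightest of these falls and one that held with lane as a covariate. Ndn, necdin, was at 48.0, 20.04 and 19.3 CPM in the controls and 0.445, 0 and 0.258 CPM in RasLOW cells (log2 fold change -6.95, standard error 0.81, edgeR adjusted p = 0.00730), and Grb10, an adaptor that restrains insulin and Igf receptors, at 9.83, 5.88 and 5.30 CPM in the controls and 0.593, 0.570 and 0.301 CPM in RasLOW cells (log2 fold change -3.82, standard error 0.43, edgeR adjusted p = 0.00640). Phlda2, a gene that limits placental growth, was at 6.63, 5.92 and 5.10 CPM in the controls and 49.8, 28.4 and 25.6 CPM in RasLOW cells (log2 fold change 2.55, standard error 0.29, edgeR adjusted p = 0.00696). All 4 calls held without control replicate 1, and without RasLOW replicate 2, 1 of the list rose and 5 fell. Ndn was at -7.88 and -6.33 without RasLOW replicates 1 and 2. Of 13 genes of MHC class I presentation tested of 15 listed, 1 rose and 2 fell: H2-K1, a class I heavy chain, was at 9.90, 11.9 and 11.7 CPM in the controls and 23.3, 24.8 and 20.9 CPM in RasLOW cells (log2 fold change 1.04, standard error 0.17, edgeR adjusted p = 0.0192), Tap1, the peptide transporter, at 25.8, 18.3 and 20.8 CPM in the controls and 1.26, 4.71 and 1.85 CPM in RasLOW cells (log2 fold change -3.05, standard error 0.48, edgeR adjusted p = 0.0181), and Nlrc5, the class I transactivator, fell from at most 1.45 CPM to at most 0.0713 CPM. B2m at -0.52 was not called, and no call of this list held without control replicate 1. When RasLOW replicate 2 was left out, 2 of the list rose and 4 fell, and Tap1 was at -3.80. Of 14 interferon-stimulated genes tested of 24 listed, 2 rose and 0 fell, both of the interferon-inducible p200 family of DNA sensors: Ifi203 was at 3.62, 3.59 and 5.51 CPM in the controls and 23.3, 42.6 and 19.03 CPM in RasLOW cells (log2 fold change 2.74, standard error 0.36, edgeR adjusted p = 0.0101), and Aim2, picked by the study on these samples, rose by 1.78 on the log2 scale. Irf7 at 0.08 and Cxcl10 at -2.67 were not called. Neither call held without control replicate 1. DESeq2 called 3 of the list higher and 3 lower, and without RasLOW replicate 2, 3 rose and 4 fell, with a median of -0.50. The members of the p200 family are alike in sequence, so that their reads may be shared.

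A list of graded genes was chosen by the study on these samples, so that it is not independent evidence of direction. Of its 15 genes 5 rose, 9 fell and Htra3, a secreted protease, was not called (log2 fold change 1.86, standard error 0.76, edgeR adjusted p = 0.210). Dynap, a membrane protein of the Akt pathway and the largest rise by the rule used for named genes, was at 0.533, 0.407 and 0.281 CPM in the controls and 41.1, 9.02 and 18.6 CPM in RasLOW cells (log2 fold change 5.79, standard error 0.66, edgeR adjusted p = 0.00652). Ptp4a3, a phosphatase, was at 116, 145 and 149 CPM in the controls and 7.97, 14.2 and 3.22 CPM in RasLOW cells (log2 fold change -4.01, standard error 0.49, edgeR adjusted p = 0.00804), and Sulf2, which trims heparan sulphate, at 394, 361 and 418 CPM in the controls and 83.8, 106 and 67.0 CPM in RasLOW cells (log2 fold change -2.19, standard error 0.19, edgeR adjusted p = 0.00410). RasLOW replicates spread widely in Dynap and Ptp4a3 and were close in Sulf2. No gene of the 3 had overlapping groups, as holds for every called gene. Dynap was at 5.07 on the log2 scale without RasLOW replicate 1, and Ptp4a3 at -4.59 without RasLOW replicate 2.

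The largest rises and falls outside the lists were in genes of varied kinds. Anxa10, an annexin, was at 2.36, 3.40 and 3.54 CPM in the controls and 148, 32.4 and 36.2 CPM in RasLOW cells (log2 fold change 4.54, standard error 0.66, edgeR adjusted p = 0.0134). Serpinb1a, an inhibitor of neutrophil proteases, was at 1.90, 1.41 and 1.17 CPM in the controls and 18.9, 16.6 and 9.10 CPM in RasLOW cells (log2 fold change 3.31, standard error 0.37, edgeR adjusted p = 0.00635), and the potassium channel gene Kcnh2 at 4.15, 3.07 and 3.42 CPM in the controls and 40.3, 39.3 and 15.3 CPM in RasLOW cells (log2 fold change 3.16, standard error 0.39, edgeR adjusted p = 0.00886). Anxa10 was highest in RasLOW replicate 1 and at 3.47 on the log2 scale without it, and Kcnh2 lowest in RasLOW replicate 3. Nlrc4, a component of an inflammasome, was at 0.381, 0.148 and 0.0804 CPM in the controls and 2.41, 1.997 and 2.10 CPM in RasLOW cells (log2 fold change 3.38, standard error 0.56, edgeR adjusted p = 0.0196). Without control replicate 1 its log2 fold change was 4.18. Ephx4, Cdk5r2 and Tmem132c also stood among the 15 largest rises, from very low controls. Ephx4 was at 0, 0 and 0.161 CPM in the controls and 2.30, 1.21 and 0.902 CPM in RasLOW cells, so that the size of its fold rests on control replicate 3. Cdk5r2 was at 0.114, 0.0740 and 0.0804 CPM in the controls and 5.48, 0.642 and 1.20 CPM in RasLOW cells, with a log2 fold change of 4.70 that was 3.29 without RasLOW replicate 1. Tmem132c was at 0.0762, 0.222 and 0.0804 CPM in the controls and 2.001, 2.32 and 1.42 CPM in RasLOW cells (log2 fold change 3.86, and 4.53 without control replicate 2). Among the falls, Mycn, a Myc family transcription factor, was at 2.48, 0.444 and 1.33 CPM in the controls and at 0 in RasLOW cells, at least 11.0-fold lower. Scn3b, Cyp4a12b, Fbxl7, Galnt14 and Dcaf12l1 also had 0 counts in all RasLOW libraries and were lower by at least 40.2-fold, 31.6-fold, 19.9-fold, 13.4-fold and 12.1-fold. Gnai1, an inhibitory G protein subunit, was at 25.2, 1.15 and 0.884 CPM in the controls and 0, 0 and 0.0429 CPM in RasLOW cells, so that control replicate 1 alone carried most of its control level. Shisa2 at 41.0, 3.70 and 4.02 CPM in the controls and 0, 0 and 0.0859 CPM in RasLOW cells had the same pattern, and Fam124a fell from 8.57, 3.40 and 3.496 to 0.0370, 0.0357 and 0 CPM. Anxa10, Ephx4, Cdk5r2, Tmem132c, Mycn, Galnt14 and Dcaf12l1 were no longer called without control replicate 1, while the other genes named with them stayed called.

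Some calls lay side by side on a chromosome. Positions on mm9 were found for 96.7% of the genes tested, and runs of at least 3 neighbouring tested genes called in the same direction were listed. On chromosome 10 (chr10:117125944-117282991) Mdm2, Slc35e3, Nup107 and Rap1b, which include the p53 regulator and the GTPase described above, all rose, with log2 fold changes from 1.24 to 3.58. Nup107, a protein of the nuclear pore, was at 129, 153 and 193 CPM in the controls and 2531, 1066 and 2061 CPM in RasLOW cells (log2 fold change 3.58, standard error 0.35, edgeR adjusted p = 0.00463), and Slc35e3 was at 57.1, 60.5 and 83.5 CPM in the controls and 456, 624 and 539 CPM in RasLOW cells (log2 fold change 3.01, standard error 0.21, edgeR adjusted p = 0.00218). No RasLOW library came near the controls in these genes. Just before the run lie Cpsf6, a cleavage and polyadenylation factor (log2 fold change 1.36, edgeR adjusted p = 0.0140), and the carboxypeptidase gene Cpm, which was not called (2.94, adjusted p = 0.0609). Further out, Yeats4 and Frs2 on one side and Mdm1 and Dyrk2 on the other had log2 fold changes between -0.28 and -0.05 and were not called. Hoxb8, Hoxb7, Hoxb6 and Hoxb5, homeobox genes of body position, fell as a run on chromosome 11 (chr11:96143219-96167434), with log2 fold changes from -4.82 to -3.42. Hoxb7 was at 10.6, 11.5 and 9.52 CPM in the controls and 0.370, 0.606 and 0.172 CPM in RasLOW cells (log2 fold change -4.75, standard error 0.44, edgeR adjusted p = 0.00416), and Hoxb6 and Hoxb7 stayed called with lane as a covariate. The carboxylesterase genes Ces2e, Ces2f and Ces2g on chromosome 8 fell by 4.25 or more on the log2 scale, although they are close copies of each other. Dapk1, a death-associated kinase, led a run of 4 falls on chromosome 13 and was at 85.6, 37.5 and 41.4 CPM in the controls and 0.889, 0.891 and 0.387 CPM in RasLOW cells (log2 fold change -6.22, standard error 0.48, edgeR adjusted p = 0.00277). Perp, Tnfaip3 and Ifngr1 fell together on chromosome 10, where Tnfaip3, an inhibitor of NF-kappaB, was at 321, 377 and 237 CPM in the controls and 155, 104 and 74.6 CPM in RasLOW cells (log2 fold change -1.49, standard error 0.29, edgeR adjusted p = 0.0314). The other 3 runs, all of falls, were Jrk, Psca and Them6, then Kank1, Dmrt2 and Smarca2, and last Col5a1, Ppp1r26 and 1700007K13Rik. Only the Hoxb run kept every call without control replicate 1, and each of the others lost a call or more, Mdm2 among them. How many such runs the shares of called genes would give was not counted.

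Whole chromosomes also differed in their median. The median log2 fold change was 0.36 over the 605 genes tested on chromosome 17 and 0.31 over the 762 on chromosome 5, against 0.01 over all genes, and it was -0.20 on chromosome 16. Of the genes tested on chromosomes 5 and 17, 80.2% and 79.8% had a log2 fold change above 0, against 51.5% of all placed genes. On chromosome 17 the medians of the RasLOW libraries against the control mean, in log2 of CPM plus 1, were 0.25, 0.34 and 0.29, and those of the controls were -0.03, 0.00131 and 0.03. On chromosome 5 they were 0.27, 0.28 and 0.30, against -0.03, 0.01 and 0.01 in the controls. All RasLOW libraries were thus above all controls on both. When the genes of a chromosome were split by position into 4 sets of about equal number, each set of these chromosomes was shifted, with median log2 fold changes from 0.28 to 0.40 on chromosome 5 and from 0.33 to 0.38 on chromosome 17. Chromosome 14 had a median of 0.23, but its controls differed among themselves, with replicate 1 at 0.32 and the others at -0.16 and -0.17.

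Some of the calls lay on these chromosomes. Of the 230 genes called higher with a position, 33.0% were on chromosomes 5 and 17, which hold 11.5% of the genes tested. Rps6ka2 and H2-K1 are on chromosome 17, and Areg, Insig1, Cyp51 and Psph on chromosome 5. Their log2 fold changes ran from 0.78 for Cyp51 to 2.29 for Rps6ka2. Being above the medians of their chromosomes was given by the choice of called genes. On the X chromosome the last of the 4 sets (chrX:132703523-166443668), in which Rps6ka3 lies, had a median log2 fold change of 0.56 with 15 genes called higher and 2 lower, against medians from -0.01 to 0.08 in the other 3. RasHIGH cells share the same controls, and their values stand beside those of RasLOW cells with all 9 cell line libraries scaled together. On chromosome 5 the library medians were 0.28, 0.26 and 0.30 in RasLOW and 0.16, 0.23 and 0.21 in RasHIGH cells. On chromosome 17 they were 0.25, 0.31 and 0.30 in RasLOW and 0.32, 0.30 and 0.32 in RasHIGH cells, and in the last set of the X chromosome 0.51, 0.41 and 0.52 in RasLOW and 0.29, 0.45 and 0.53 in RasHIGH cells. The origin of these shifts was not tested.

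**Figure D5:**
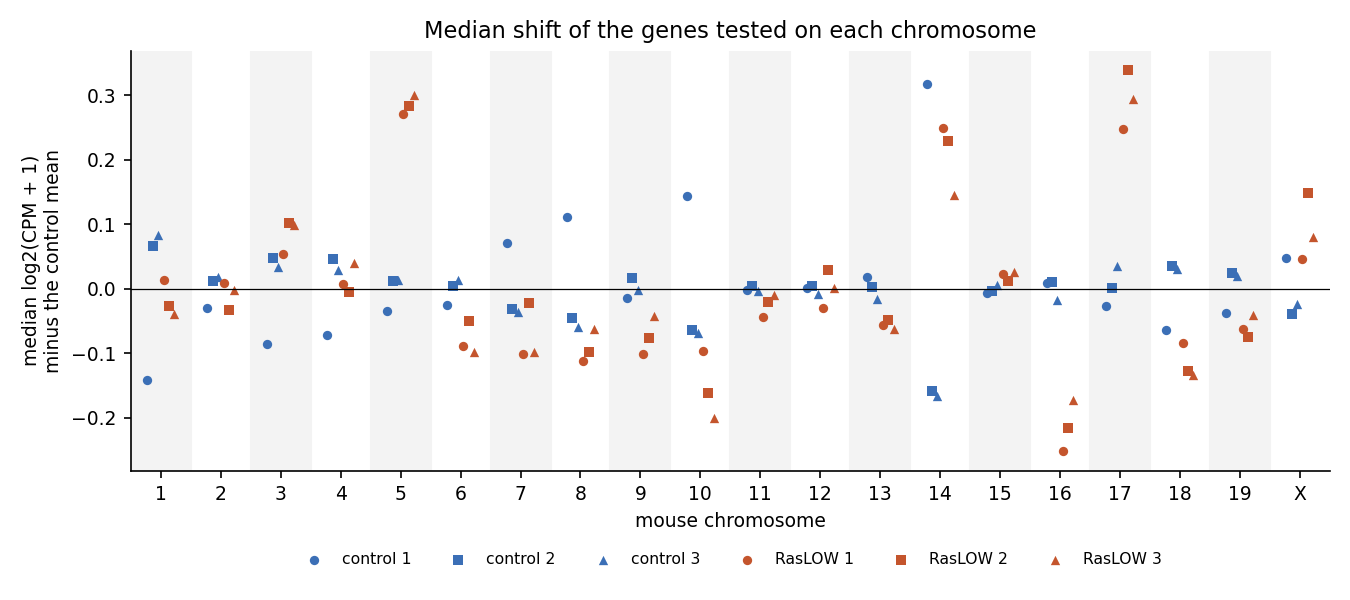
Median over the genes tested on each mouse chromosome of log2(CPM + 1) minus the mean of the 3 controls, for the 3 control (blue) and 3 RasLOW (orange) libraries, with marker shapes for replicates and no error bars. The 3 RasLOW libraries stand above all controls on chromosomes 5 and 17 and below them on chromosome 16, while on chromosome 14 control replicate 1 lies with the RasLOW libraries.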

How the data were processed

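RNA of 3 independent samples of each population was made into libraries with a NuGEN Universal Plus mRNAseq kit and sequenced on an Illumina HiSeq. Per the study's methods the authors aligned the reads to mm9 with TopHat2, whereas the submitters' processing notes name FastQC, Bowtie 0.12.2, mm8 and mm10. The counting program, its strand setting and the annotation are not given in the sources used here, so antisense and overlapping genes may share reads. The authors deposited raw, unnormalized read counts for 24984 genes in 25 libraries, and 0 columns were left unmapped. No group was inferred from values.

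The tests on the counts of the 6 libraries used edgeR 4.0.16 under R 4.3.3: filterByExpr (minimum count 10, 12307 genes kept), TMM, the quasi-likelihood F-test without covariates, and Benjamini-Hochberg adjustment over all genes tested. Genes at an adjusted p under 0.05 were called, and every p-value printed is from this test unless another tool is named. Standard errors are the absolute log2 fold change divided by the square root of F. CPM are given in the order of replicates 1, 2 and 3. The sources name no shared culture or day for replicate numbers, and the deviations of same-numbered libraries correlated across genes at -0.06, -0.30 and -0.02, so no block was used.

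Members and gene lists were chosen with earlier results of these data known. Named genes are called list members with the largest change (at most 6 each way per list) and others that an account turns on, the 15 called genes with the largest rise and the 15 with the largest fall that had at least 100 counts and no overlap, the Ras genes, and the transcripts the study measured by RTqPCR. Genes of the position runs and of the lane fit, Trp53, Tnfaip3, Hoxb7 and Dapk1 among them, were chosen after values were seen. Some genes that this rule names are not reported here. Counts and medians of lists cover tested members, are descriptions, and carry no test of the list. Positions are from GENCODE M1 on mm9, and upstream sequences from RefSeq on GRCm38.p6. On simulated counts for 12307 genes with 200 changed by a log2 fold change of 2.5, the test called 198 of the 200 and 8 others. The simulation gave every gene the same spread between replicates, with no lane effect and no library standing apart. It does not show how the test performs on these 6 libraries. Alternatives included DESeq2 1.42.0, the edgeR exact test, RLE scaling, other filters, all 9 cell line libraries, a replicate block, lane and leaving out each library.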

Additional observations from a re-analysis of the deposited data

How the results depend on the processing

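The number of genes called, 734, was 1622 with DESeq2, 1352 with the edgeR exact test, 295 with a replicate block, 26 with lane as a covariate, 0 in lane 4 only (edgeR, 806 at an unadjusted p under 0.05), 107 at an adjusted p under 0.01, and between 148 and 2340 when 1 library was left out. The fewest were called without control replicate 2 and the most without RasLOW replicate 2, while leaving out control replicate 3, RasLOW replicate 1 or RasLOW replicate 3 gave 178, 368 and 199. RLE scaling, other filters and all 9 libraries gave 638 to 822. By the study's thresholds, 542 genes became 309 with lane as a covariate, 237 in lane 4 only, 95 with adjusted p, 495 with the replicate block and 477 to 767 without 1 library. Of the genes past them, 106 higher and 436 lower became 48 and 261 with lane, 48 and 189 in lane 4 only, and 69 to 136 and 346 to 662 without 1 library.

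The log2 fold change of Hras, -0.08, was 0.0957 with lane as a covariate, 0.0953 in lane 4 only and between -0.29 and 0.18 without 1 library. Other uncalled genes reversed too. Dusp4 was at -0.212 without RasLOW replicate 2 (up to 0.383 without another library), Dusp6 at 0.00245 with no filter, 0.132 with lane, 0.129 in lane 4 only and between -0.132 and 0.125 without 1 library (0.0681 and 0.0255 without RasLOW replicates 1 and 3), and Csn3 at -0.789, -0.795 and, without control replicate 1, control replicate 2 or RasLOW replicate 2, -0.335, -0.0825 and -0.530 (up to 0.748 without another library). Of 145 named called genes, all with groups that do not overlap, 0 reversed in any alternative, which such a choice makes nearly certain. Of them 2 were no longer called with DESeq2, 58 with the block, 132 with lane and 1 to 92 without 1 library. Replicate numbers do not pair these libraries, so a call lost under the block is not a weaker effect. The cause of these changes was not tested. Lane 4 holds 1 control library, which was assumed to vary like the RasLOW libraries.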
